A study of Homo sapiens with 12 samples.

Results

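Growth receptor transcripts were described in WM1366, a human cell line that was established from a cutaneous melanoma and has an activating NRAS mutation. The genes were EGFR, its ligand gene AREG, PDGFRB, FGFR1, MET, IGF1R and RYK, chosen by gene symbol. All 7 symbols were found, each on 1 row, among the 12931 rows of every library. RNA sequencing had been done on 12 libraries, 4 in each of 3 groups. R1 and R2 were 2 groups of libraries whose labelled diet combined inhibitors of MEK and of CDK4/6, and the control group had a control diet. The series presents the material as WM1366 xenograft tumours that were progressing, while the sample labels describe cultured melanoma cells. The treatment text of those labels names palbociclib at 0.1 µM and PD0325901 at 1 nM for every library, control included. Palbociclib inhibits CDK4/6 and PD0325901 inhibits MEK. The labels give no time, host strain or age. They leave unsaid how R1 and R2 differ and whether replicates of a group are separate tumours. P-values therefore measure only the spread between these libraries, which may be technical. WM1366 is a single cell line, and reads of mouse host cells were not separated here. Values are the authors' normalised read counts, in which 3 reads correspond to 0.0728 to 0.158 at depths of 20003891 to 39009384 reads in listed genes. A gene is said to rise or fall where limma gave an adjusted p under 0.05 over all 12931 rows, on the log2(value + 0.5) scale.

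Receptor tyrosine kinases are cell surface proteins that dimerise when a growth factor binds and then phosphorylate one another. Adaptor proteins read these phosphotyrosines and switch on RAS, which feeds the RAF-MEK-ERK cascade, and PI3K, which feeds AKT and mTOR. In melanoma, EGFR and PDGFRB are known for their higher level in undifferentiated cells that tolerate RAF or MEK inhibitors, and receptor signalling can reach ERK or AKT past such drugs. AREG is made as a membrane precursor, and metalloproteases of the ADAM family release the soluble ligand that binds EGFR. RYK belongs to the same protein family by sequence, but its kinase domain is catalytically inactive and it binds WNT ligands.

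In R1 against control, 5 of the 7 genes passed the test, against 43.8% of all genes. AREG and FGFR1 rose (22.4% of all genes rose) and EGFR, IGF1R and RYK fell (21.4% of all genes fell). The ranges of the R1 and control libraries did not overlap for 4 of the 7, against 39.7% of all genes. In R2 against control, 4 of the 7 passed, against 28.4% of all genes. FGFR1 and RYK rose (13.6% of all genes rose) and AREG and PDGFRB fell (14.8% of all genes fell), with 3 of 7 ranges apart (34.8% of all genes). In R1 against R2, 5 of the 7 passed, against 46.8% of all genes. AREG and PDGFRB were higher in R1 (24.0% of all genes were) and EGFR, IGF1R and RYK lower (22.8% of all genes were), with 5 of 7 ranges apart (39.4% of all genes). The median log2 fold change of the 7 genes was -0.21 for R1 minus control, -0.05 for R2 minus control and -0.16 for R1 minus R2, beside 0.01, 0.03 and 0.00 over all genes. R1 and R2 were compared with the same 4 control libraries, so these comparisons are not independent of each other.

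**Figure D1:**
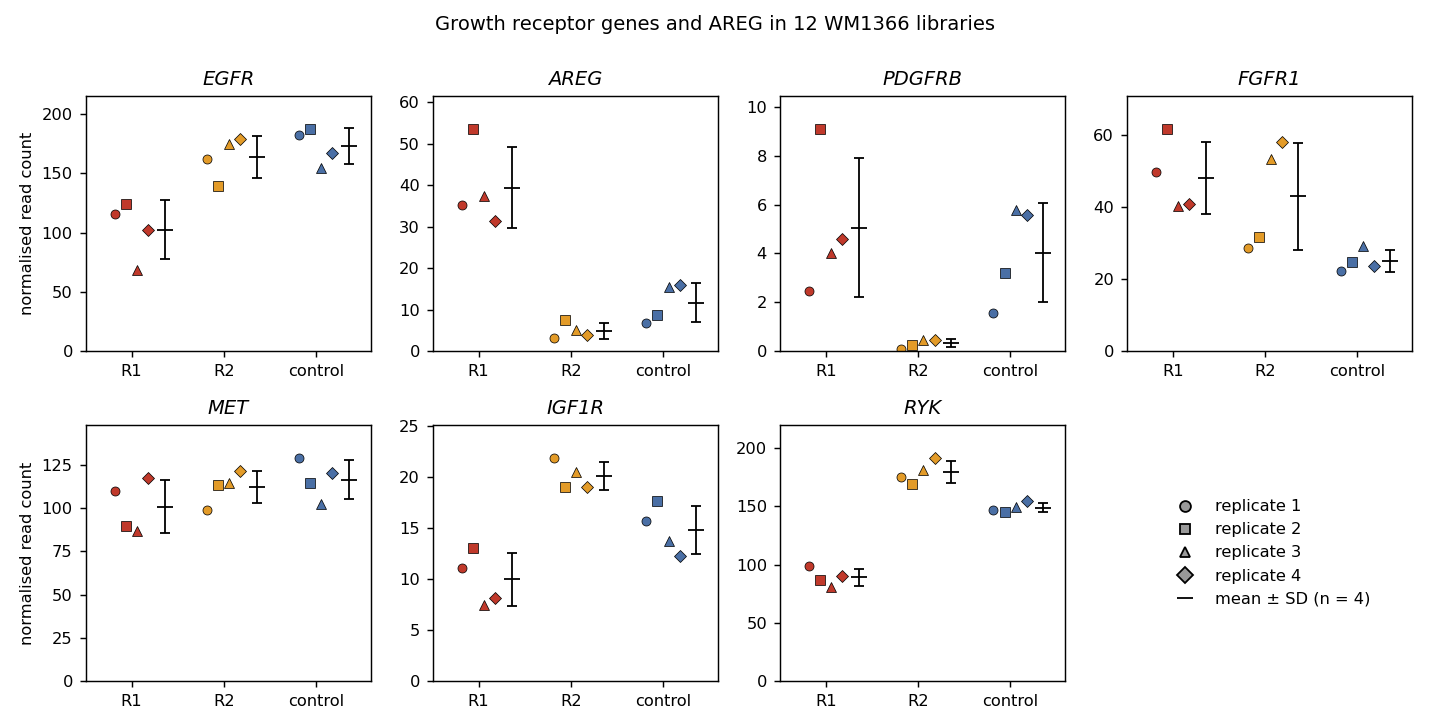
Normalised read counts of the 7 genes in each library of R1, R2 and control, with 1 marker shape per replicate number and bars at the mean ± SD (n = 4). AREG was highest in the R1 libraries (31.4 to 53.6), PDGFRB was near 0 in the R2 libraries (0.116 to 0.468), and RYK was lowest in R1 (80.5 to 98.8) and highest in R2 (169 to 191).

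**Figure D2:**
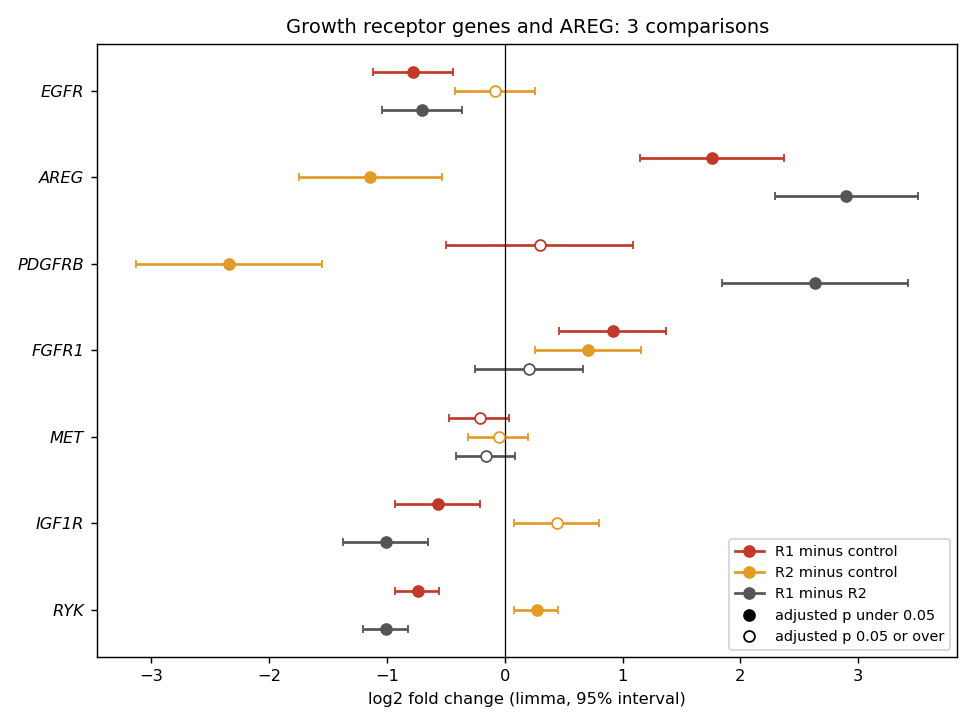
Log2 fold changes (limma) of the 7 genes in the 3 comparisons, with 95% intervals, filled where the adjusted p was under 0.05. AREG stood at 1.76 for R1 minus control and -1.14 for R2 minus control, and the MET intervals all included 0.

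Per kilobase of merged exon length (GENCODE 29), RYK was the most abundant of the 6 receptor genes in every group, at 27.3 to 33.6 normalised counts per kb in the R1 libraries, 57.5 to 65.0 in R2 and 49.5 to 52.4 in control. MET had 12.95 to 17.6 per kb in R1, 14.8 to 18.1 in R2 and 15.3 to 19.3 in control. EGFR had 6.05 to 10.9 per kb in R1, 12.3 to 15.8 in R2 and 13.6 to 16.5 in control, so that the per-kb ranges of EGFR and MET overlapped in R2 and in control and were apart in R1. FGFR1 had 6.18 to 9.44 per kb in R1, within the EGFR range there, 4.41 to 8.87 in R2 and 3.41 to 4.48 in control, below EGFR in these 2 groups. IGF1R and PDGFRB were the least abundant, with overlapping per-kb ranges in R1 (0.611 to 1.07 for IGF1R, 0.433 to 1.59 for PDGFRB). The ligand gene AREG ranged per kb from 25.3 to 43.2 in R1, where it overlapped RYK, from 2.58 to 6.12 in R2 and from 5.49 to 12.9 in control.

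The 250 bases before the start of the 5 genes that differed between R1 and R2 are shown because AREG and PDGFRB moved together, being higher in R1 than in R2, as did EGFR, IGF1R and RYK, which were lower in R1. They are from the RefSeq promoter table (GRCh38.p14), where all 5 had an entry, and are written 5′ to 3′ on the gene's strand. FGFR1 and MET, which did not pass the test between R1 and R2, are not shown. Capitals mark matches, on either strand, to the CRE (TGACGTCA), the GC box (GGGCGG or its reverse complement) and the AP-2 motif (GCCNNNGGC). The AP-1 motif (TGANTCA) and the E-box CATGTG read by MITF were searched as well and had no match in these 5 windows. EGFR has another RefSeq window farther into the gene, which is not shown. It held 2 AP-1 matches, with first bases 232 and 136 bases before its start, and 1 E-box at 236, motifs present in 6.57% and 9.42% of all windows.
AREG promoter window (chr4:74444886-74445135, + strand): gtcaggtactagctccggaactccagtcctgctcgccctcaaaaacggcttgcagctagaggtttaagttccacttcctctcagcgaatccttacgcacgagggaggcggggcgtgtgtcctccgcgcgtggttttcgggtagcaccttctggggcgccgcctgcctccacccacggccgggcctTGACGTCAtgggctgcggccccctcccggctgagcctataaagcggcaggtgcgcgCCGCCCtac
PDGFRB promoter window (chr5:150155846-150156095, - strand): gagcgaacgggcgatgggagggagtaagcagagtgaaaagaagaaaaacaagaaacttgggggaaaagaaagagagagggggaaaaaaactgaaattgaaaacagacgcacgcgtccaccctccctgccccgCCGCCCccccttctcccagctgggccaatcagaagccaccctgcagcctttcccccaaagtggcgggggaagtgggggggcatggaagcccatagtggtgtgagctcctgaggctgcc
EGFR promoter window (chr7:55018767-55019016, + strand): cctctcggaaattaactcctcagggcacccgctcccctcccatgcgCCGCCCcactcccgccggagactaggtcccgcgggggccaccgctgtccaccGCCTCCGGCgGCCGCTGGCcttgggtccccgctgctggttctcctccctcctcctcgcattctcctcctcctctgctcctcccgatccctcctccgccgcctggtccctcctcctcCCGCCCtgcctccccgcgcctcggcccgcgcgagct
IGF1R promoter window (chr15:98648289-98648538, + strand): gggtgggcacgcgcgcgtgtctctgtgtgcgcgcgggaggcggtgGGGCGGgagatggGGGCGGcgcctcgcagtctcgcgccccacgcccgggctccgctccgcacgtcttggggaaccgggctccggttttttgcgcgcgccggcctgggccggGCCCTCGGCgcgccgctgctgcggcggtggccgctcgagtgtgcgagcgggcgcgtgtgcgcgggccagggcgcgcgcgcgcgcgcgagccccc
RYK promoter window (chr3:134250860-134251109, - strand): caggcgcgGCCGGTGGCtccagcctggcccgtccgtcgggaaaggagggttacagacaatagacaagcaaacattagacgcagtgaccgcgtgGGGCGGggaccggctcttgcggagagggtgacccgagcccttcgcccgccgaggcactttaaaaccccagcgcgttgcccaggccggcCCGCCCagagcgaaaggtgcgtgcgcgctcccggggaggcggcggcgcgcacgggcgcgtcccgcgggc
The AREG window held 1 CRE, whose first base lies 65 bases before the start, and 1 GC box. A CRE was present in 1.65% of 35116 RefSeq promoter windows of this length, and none of the other 4 windows shown held one. GC boxes were present in all 5 windows, 2 each in EGFR, IGF1R and RYK and 1 each in AREG and PDGFRB, and in 42.6% of all windows. AP-2 matches were present in EGFR (2), IGF1R (1) and RYK (1), and in 19.8% of all windows. The GC content was 73.6% in EGFR, 81.2% in IGF1R and 72% in RYK, against 65.2% in AREG and 58.4% in PDGFRB, beside a median of 58% over all windows. A match describes letters in these windows and was not tested as a binding site.

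AREG codes for amphiregulin, a ligand of EGFR. Its normalised read counts were 35.3, 53.6, 37.5 and 31.4 in R1 replicates 1 to 4. They were 3.20, 7.59, 5.12 and 3.99 in R2, against 6.81, 8.68, 15.4 and 16.02 in control. Every R1 library was above every R2 and control library, while R2 and control overlapped. AREG rose 3.36-fold in R1 against control (39.4 ± 9.77 against 11.7 ± 4.67, SD, n = 4, log2 fold change 1.76, SE 0.28, limma adjusted p = 0.00021). It fell in R2 against control (4.97 ± 1.91 against 11.7 ± 4.67, log2 fold change -1.14, adjusted p = 0.0083) and was 7.93-fold higher in R1 than in R2 (log2 fold change 2.90, adjusted p = 2.8e-06). The fall in R2 depended on the control libraries compared. Control replicates 3 and 4 had lain apart from control replicates 1 and 2 on the third principal component of all genes (-13.5 and -10.9 against 18.6 and 10.8), and without them the log2 fold change in R2 was -0.64 and the call was lost (adjusted p = 0.16). What separates those control libraries was not tested. AREG lies on chromosome 4, 74445134 to 74455009 on the plus strand (GRCh38, GENCODE 29), between EREG and BTC, which code for 2 further EGFR ligands. Of 8 listed genes within 1 Mb, 0 rose and 1 fell in R1 against control (43.8% of all genes passed), and that 1 was EREG.

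Among the other EGFR ligand genes, HBEGF rose in R1 and EREG fell. HBEGF codes for heparin-binding EGF-like growth factor and had normalised counts of 552, 503, 889 and 744 in R1, 283, 212, 398 and 401 in R2, and 326, 261, 404 and 380.5 in control. It was higher in every R1 library than in any other, by 0.95 on the log2 scale against control (adjusted p = 0.0034) and 1.07 against R2 (adjusted p = 0.0015), and R2 minus control was -0.11 (adjusted p = 0.75). EREG, the epiregulin gene, fell in both, to 10.4 ± 1.86 in R1 and 7.45 ± 1.81 in R2 against 21.0 ± 0.948 in control (log2 fold changes -0.99 and -1.46, adjusted p = 0.00034 and 2.1e-05). Per kilobase of exon, HBEGF was the most abundant EGFR ligand gene of those given here, at 282 normalised counts per kb in R1, 135 in R2 and 144 in control. AREG was at 31.8 per kb in R1, 4.01 in R2 and 9.46 in control, and EREG at 2.25 in R1, 1.61 in R2 and 4.54 in control. BTC, which codes for betacellulin, was at 0.655 in R1, 0.628 in R2 and 0.946 in control. BTC (-0.42 in R1 and -0.52 in R2 against control, adjusted p = 0.13 and 0.09) and EGF (0.68 and 0.23, adjusted p = 0.079 and 0.6) did not pass the test. TGFA was not listed. NRG1, whose product binds ERBB3 and ERBB4, had 9.25, 12.02, 8.77 and 9.55 in R1, 25.0, 23.0, 47.9 and 53.9 in R2, and 48.5, 40.5, 33.4 and 33.7 in control. It fell in R1 (log2 fold change -1.92, adjusted p = 2.6e-05) to below every R2 and control library, whereas R2 minus control was -0.14 (adjusted p = 0.71).

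Of the 10 measured genes of the EGF ligand and ERBB receptor list, EGFR and AREG included, 2 rose and 4 fell in R1, 0 rose and 4 fell in R2, and 6 were higher and 2 lower in R1 than in R2. The share that passed was 60.0% in R1, 40.0% in R2 and 80.0% between R1 and R2, beside 43.8%, 28.4% and 46.8% of all genes. Without R1 replicate 2 or without R2 replicate 1 the calls between R1 and R2 numbered 5 in place of 8. The list's median log2 fold change was -0.36, -0.66 and 0.53 in the 3 comparisons. ERBB2, the partner with which other ERBB receptors pair, fell in R2 (3.31 ± 1.14 against 8.34 ± 1.46 in control, log2 fold change -1.26, adjusted p = 0.0028). Among 9 measured genes of ligand shedding and trafficking, 3 rose and 4 fell in R1 (77.8% passed, against 43.8% of all genes) and 1 rose and 3 fell in R2 (44.4%, against 28.4% of all genes). ADAM15, a membrane metalloprotease, rose in both (350.0 ± 45.5 in R1 and 269 ± 25.3 in R2 against 189 ± 22.3 in control). ADAM10, which sheds betacellulin and EGF, fell in both (53.3 in R1 and 47.3 in R2 against 71.1 in control, adjusted p = 0.011 and 0.0021). RHBDF2 codes for iRhom2, which carries the sheddase ADAM17 to the surface, and fell in both as well (-1.05 and -1.21, adjusted p = 0.0084 and 0.0056).

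EGFR, the receptor of AREG and HBEGF, had normalised read counts of 116, 124, 68.6 and 102 in R1 replicates 1 to 4. The R2 libraries had 162, 139, 175 and 179, against 183, 187, 154 and 167 in control. All 4 R1 libraries were below all R2 and control libraries, with replicate 3 the lowest, and R2 overlapped control. EGFR fell in R1 to 103 ± 24.5 against 173 ± 15.1 in control (SD, n = 4, log2 fold change -0.78, SE 0.16, adjusted p = 0.0013), and was lower in R1 than in R2, which averaged 164 ± 17.9 (log2 fold change -0.70, adjusted p = 0.0025). R2 minus control was -0.08 with a 95% interval of -0.42 to 0.26 (adjusted p = 0.74). The transcript of the receptor was lowest in R1, where its ligand transcripts AREG and HBEGF were highest. The EGF mean was highest in R1 too (2.19). The EREG and BTC means were highest in control (21.0 and 2.665), as the EGFR mean was. EGF and BTC did not pass the test against control. EGFR lies on chromosome 7, 55019021 to 55211628 on the plus strand. Of 7 listed genes within 1 Mb, 1 rose and 4 fell in R1 against control, with a median log2 fold change of -0.40. In R2, 1 rose and 0 fell (median 0.09). The shares of all genes that passed were 43.8% in R1 and 28.4% in R2.

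EGFR and NRG1 are among 12 markers of undifferentiated melanoma, of which 11 were listed. The 10 listed markers other than EGFR summed to 2260 to 2640 normalised counts in R1, 3180 to 3540 in R2 and 3410 to 3730 in control, so that the R1 sums were below all others, as the EGFR values were. With EGFR counted, 1 rose and 6 fell in R1, 0 rose and 3 fell in R2, and 2 were higher and 6 lower in R1 than in R2. The shares of all genes that passed were 43.8%, 28.4% and 46.8% in these comparisons. AXL, a receptor kinase gene of this list, fell in R1 (825 ± 144 against 1584 ± 80.1 in control, log2 fold change -0.95, adjusted p = 4.4e-05), as did TPM1, which codes for a tropomyosin (-1.44, adjusted p = 7e-06), and LOXL2, a lysyl oxidase relative (-1.02, adjusted p = 0.0035). The melanocyte lineage list held 4 of 12 markers (MITF, PMEL, ERBB3 and RAB27A), which summed to 64.9 to 85.8 in R1, 50 to 53.2 in R2 and 78.0 to 92.4 in control. The defining genes SOX10, MLANA, TYR, TYRP1 and DCT were not listed. In each of R1 and R2, 1 of these 4 rose against control and 3 fell. MITF fell in both (23.5 ± 6.08 in R1 and 30.45 ± 2.47 in R2 against 50.35 ± 9.08 in control, adjusted p = 0.00022 and 0.0093). RAB27A had 18.3 in R1 and 11.05 in R2 against 24.97 in control (adjusted p = 0.0066 and 5.5e-06). ERBB3 had 2.17 in R1 and 1.22 in R2 against 4.24 in control (adjusted p = 0.0053 and 0.00019). PMEL, a melanosome protein gene, rose in both (27.1 ± 6.14 in R1 and 8.81 ± 2.61 in R2 against 5.32 ± 1.147 in control, log2 fold changes 2.24 and 0.66, adjusted p = 1.5e-06 and 0.028). AXL, TPM1, LOXL2 and the 4 melanocyte markers were given after their values were seen, and the part of the markers in the EGFR values was not tested.

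**Figure D3:**
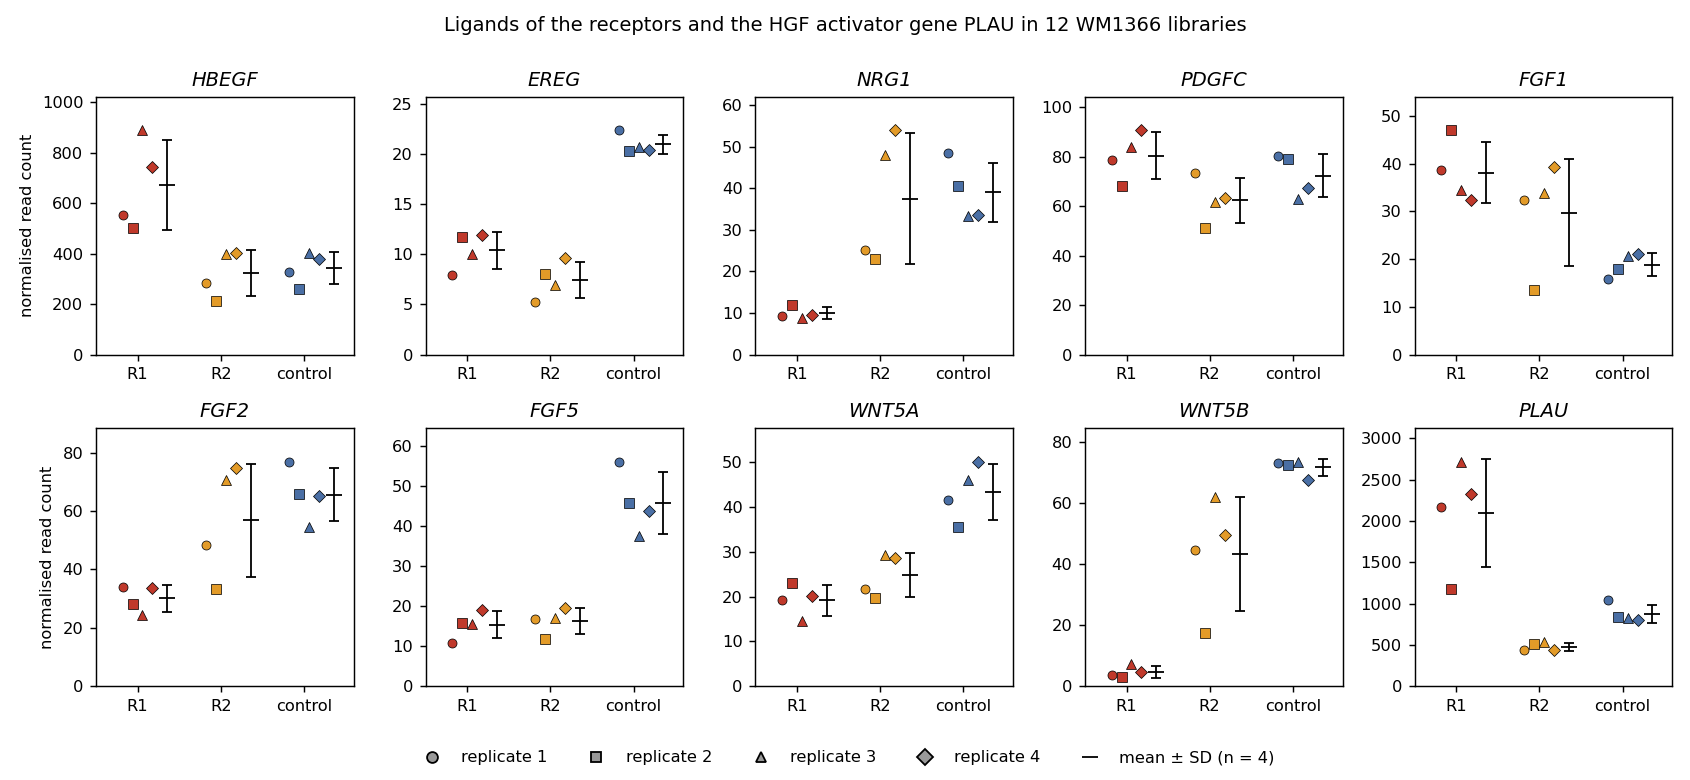
Normalised read counts of 9 ligand genes and of PLAU, which codes for urokinase, in each library of R1, R2 and control, with bars at the mean ± SD (n = 4). HBEGF and PLAU were highest in R1, NRG1 and WNT5B lowest in R1, and EREG, FGF5 and WNT5A lower in R1 and R2 than in control.

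PDGFRB codes for the platelet-derived growth factor receptor beta, which binds PDGF-BB and PDGF-DD. Its normalised read counts were 2.48, 9.08, 4.02 and 4.60 in R1 replicates 1 to 4, and 0.116, 0.279, 0.468 and 0.459 in R2, against 1.56, 3.19, 5.78 and 5.57 in control. These rest on 564 reads in all R1 libraries together, 35 in R2 (4, 6, 15 and 10 per library) and 338 in control. The 4 R2 libraries were below all others, and R1 overlapped control. PDGFRB was 12.2-fold lower in R2 than in control (0.331 ± 0.167 against 4.03 ± 2.02, SD, n = 4, log2 fold change -2.34, SE 0.37, adjusted p = 0.0003) and 15.3-fold higher in R1 than in R2 (5.05 ± 2.84 against 0.331 ± 0.167, log2 fold change 2.63, adjusted p = 6.2e-05). The added 0.5 makes these log2 values smaller than those of count models on the recovered reads, where edgeR gave -3.61 for R2 minus control and 3.93 for R1 minus R2 (adjusted p = 0.00023 and 6.1e-05). R1 minus control was 0.30 (95% interval -0.50 to 1.09, adjusted p = 0.54), and it was -0.01 without R1 replicate 2 and -0.04 without control replicate 1. Libraries of 1 group were widely spread, between 2.48 and 9.08 in R1 and between 1.56 and 5.78 in control.

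The PDGF ligand genes PDGFB and PDGFD, whose products bind this receptor, fell in R2 too. PDGFB had 0.752, 0.921, 1.14 and 0.989 in R1, 0.291, 0, 0.156 and 0.138 in R2, and 1.56, 0.740, 2.03 and 0.630 in control, and fell in R2 (log2 fold change -1.37, adjusted p = 0.00098). PDGFD had 2.18, 3.34, 1.29 and 2.38 in R1, 0.262, 1.72, 0.281 and 0.0918 in R2, and 1.08, 1.29, 1.67 and 2.47 in control, and fell in R2 with overlapping ranges (-1.13, adjusted p = 0.03). Both are low genes, with at most 39 and 90 reads in a library. PDGFC, the most abundant of the PDGF ligand genes at 15.0 to 19.3 normalised counts per kb in the group means, did not pass the test in R1 or R2 (0.15 and -0.22, adjusted p = 0.37 and 0.23), and nor did PDGFA (0.17 and -0.33, adjusted p = 0.41 and 0.12). All 4 ligand genes were higher in R1 than in R2, by 0.37 (PDGFC) to 1.52 (PDGFD) on the log2 scale. PDGFRA was not listed. Of 14 measured genes of the PDGF and VEGF family list, 0 rose and 3 fell in R1, 0 rose and 5 fell in R2, and 7 were higher and 0 lower in R1 than in R2. These calls were 21.4% of the list in R1, under the 43.8% of all genes, 35.7% in R2 (28.4% of all genes) and 50% between R1 and R2 (46.8% of all genes). The 5 calls in R2 became 3 without R2 replicate 1, 3 or 4 or control replicate 3, and 2 without control replicate 4. NRP1, a co-receptor of VEGF, fell in both (155 in R1 and 189 in R2 against 248 in control, adjusted p = 0.00076 and 0.039), and VEGFC, a lymphatic growth factor, fell in R1 (-0.73, adjusted p = 0.011).

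PDGFRB lies on chromosome 5, 150113837 to 150155872 on the minus strand. Of 23 listed genes within 1 Mb, 4 rose and 2 fell in R2 (28.4% of all genes passed), with a median log2 fold change of 0.04. The 2 that fell, named after their values were seen, were ARHGEF37 (-1.23, adjusted p = 0.0074) and CSF1R (-1.20, adjusted p = 0.019), the macrophage colony-stimulating factor receptor gene that stands beside PDGFRB in the genome. Both were also higher in R1 than in R2 (2.24 and 1.51, adjusted p = 4.5e-05 and 0.0029).

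PDGFRB and CSF1R are used as markers of pericytes and fibroblasts and of macrophages. WM1366 is a human melanoma cell line, so such cells could only be mouse host cells, whose reads were not separated here. Transcripts of the melanoma cells and reads of host cells cannot be told apart in these bulk libraries. Nor can fewer host cells and less RNA per cell. Of 15 fibroblast and pericyte markers 9 were listed. COL1A2, COL3A1, DCN, PDGFRA, ACTA2 and DPT, which define fibroblasts, were not listed. The 8 listed ones other than PDGFRB summed to 1220 to 1390 normalised counts in R1, 1600 to 1740 in R2 and 1440 to 1620 in control, and most of each sum was MCAM, THY1 and COL1A1 (880.5, 553 and 216 on average in R2, against 841, 420 and 271 in control). With PDGFRB counted, 2 rose and 2 fell in R1, 1 rose and 3 fell in R2, and 4 were higher and 3 lower in R1 than in R2. The shares of all genes that passed were 43.8%, 28.4% and 46.8% in these comparisons. Beside PDGFRB, the markers that fell in R2 were LUM (2.02 ± 0.341 against 6.66 ± 2.29 in control, log2 fold change -1.46, adjusted p = 0.0017) and CSPG4 (13.3 ± 7.52 against 27.2 ± 8.16, -1.15, adjusted p = 0.027). NOTCH3 averaged 0.0390 in R2 and 0.899 in control and did not pass the test (-1.25, adjusted p = 0.066). The marker that rose in R2 was THY1 (log2 fold change 0.39, adjusted p = 0.023). RGS5, a pericyte marker, averaged 2.55 in R1, 6.13 in R2 and 3.66 in control. It was lower in R1 than in R2 (-1.19, adjusted p = 0.013), and R2 minus control was 0.58 (adjusted p = 0.24). MCAM, COL1A1, LUM, CSPG4, NOTCH3, THY1 and RGS5 were named after their values were seen. Of 12 leukocyte and macrophage markers only CSF1R was listed, without PTPRC, CD68 or CD14. Of 12 endothelial markers 4 were listed, without CDH5, KDR and FLT1, and they summed to 375 to 499 in R1, 126 to 157 in R2 and 133 to 172 in control. Most of each sum was TIE1 (394, 135 and 139 on average). By the test 3 rose and 0 fell in R1, 0 rose and 2 fell in R2, and 4 were higher and 0 lower in R1 than in R2. The 2 that fell in R2, named after their values were seen, were EGFL7 (0.00727 against 3.61 in control, adjusted p = 3.4e-08) and PECAM1 (0.697 against 2.26, adjusted p = 0.033). EGFL7 had 1 read in all R2 libraries together and 312 in control. Of 10 keratinocyte markers KRT10 and SFN were listed, summing to 25.5 to 39.9 in R1, 14.0 to 21.8 in R2 and 16.8 to 19.3 in control. Their part in the receptor values was not tested.

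FGFR1, which binds FGF1, FGF2 and FGF5, rose in both R1 and R2. It had normalised read counts of 49.7, 61.6, 40.3 and 40.7 in R1 and of 28.7, 31.8, 53.2 and 57.8 in R2, against 22.2, 24.8, 29.2 and 23.6 in control. The R1 libraries were all above control. In R2, replicates 3 and 4 were near the R1 values, while replicates 1 and 2 lay next to the highest control library. The rise was 1.92-fold in R1 (48.0 ± 9.996 against 25.0 ± 3.03, SD, n = 4, log2 fold change 0.92, SE 0.21, adjusted p = 0.003) and 1.72-fold in R2 (42.9 ± 14.8 against 25.0 ± 3.03, log2 fold change 0.71, adjusted p = 0.022). The call in R2 was lost without R2 replicate 3 or 4 or control replicate 1 or 4 (log2 fold changes 0.59, 0.55, 0.66 and 0.69, adjusted p = 0.07, 0.071, 0.055 and 0.054). R1 minus R2 was 0.21, with a 95% interval of -0.25 to 0.66 (adjusted p = 0.45). FGFR1 lies on chromosome 8, 38400215 to 38468834 on the minus strand. Of 15 listed genes within 1 Mb, 3 rose and 4 fell in R1 (median log2 fold change 0.16), near the 43.8% of all genes that passed. In R2, 1 rose and 0 fell (median 0.02), where 28.4% of all genes passed.

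The genes of FGF ligands, co-receptors and the decoy receptor moved in both directions. All 12 measured genes of the FGF list passed the test in R1, where 4 rose and 8 fell (43.8% of all genes passed), and 1 rose and 3 fell in R2 (33.3%, near the 28.4% of all genes). Between R1 and R2, 4 were higher and 5 lower in R1, and this count of 9 (75.0%, against 46.8% of all genes) became 5 without R1 replicate 3 or R2 replicate 1 or 2. FGF1 rose in R1, with 38.6, 47.0, 34.6 and 32.4 in R1 against 15.8, 17.99, 20.6 and 21.1 in control (log2 fold change 0.99, adjusted p = 0.0063), and had 32.4, 13.4, 33.9 and 39.3 in R2, where replicate 2 was the lowest of all libraries (0.55 against control, adjusted p = 0.13). FGF2 fell in R1 (30.1 ± 4.66 against 65.6 ± 9.16, log2 fold change -1.12, adjusted p = 0.00082) and averaged 56.8 ± 19.4 in R2 (-0.27, adjusted p = 0.38). FGF5 fell in both, to 15.3 ± 3.40 in R1 and 16.2 ± 3.22 in R2 against 45.7 ± 7.70 in control (-1.56 and -1.48, adjusted p = 1.5e-05 and 4e-05). FGFRL1, an FGF receptor relative without a kinase domain, had 28.2, 23.2, 34.0 and 34.4 in R1, 101, 89.9, 122 and 129 in R2, and 94.5, 95.2, 102 and 91.9 in control. It fell in R1 alone by the test (-1.68, adjusted p = 5.5e-07, against 0.19, adjusted p = 0.34, in R2) and was 1.87 lower on the log2 scale in R1 than in R2 (adjusted p = 2e-07). SDC1, a heparan sulfate proteoglycan that presents FGFs to their receptors, had 89.4, 65.0, 89.7 and 83.5 in R1, 24.3, 28.1, 22.5 and 18.6 in R2, and 158, 179, 142 and 135 in control. The 3 groups of SDC1 values were all apart, with log2 fold changes of -0.91 in R1 and -2.70 in R2 against control (adjusted p = 0.00016 and 7.3e-09). SDC3, another syndecan, rose in R1 (5.45 ± 3.79 against 0.519 ± 0.153, log2 fold change 2.30, adjusted p = 0.00043). FGFR4, another FGF receptor gene, named after its values were seen, was lower than control in the means of both groups. It averaged 25.6 ± 6.05 in R1 and 17.5 ± 4.91 in R2, against 38.8 ± 7.13 in control, with all R2 libraries below all control libraries. FGFR2 and FGFR3 were not listed.

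MET, the hepatocyte growth factor receptor, had the smallest log2 fold change of the 7 genes in each of the 3 comparisons. It had normalised read counts of 110, 89.8, 86.6 and 118 in R1 and of 99.2, 113, 115 and 121 in R2, against 129, 115, 102 and 120.5 in control. All 3 ranges overlapped. The log2 fold change was -0.21 for R1 minus control (95% interval -0.47 to 0.04, adjusted p = 0.15), -0.05 for R2 minus control (-0.31 to 0.20, adjusted p = 0.77) and -0.16 for R1 minus R2 (-0.41 to 0.09, adjusted p = 0.28). MET lies on chromosome 7, 116672390 to 116798386 on the plus strand. Its ligand gene HGF was not listed. The activator genes HGFAC, ST14 and HPN were not listed either. PLAU, which codes for urokinase, a protease that can cleave the HGF precursor, had 2165, 1176, 2716 and 2331 in R1, 431, 511, 528 and 440 in R2, and 1043, 836, 820.5 and 796 in control. The 3 groups of PLAU values did not overlap, with log2 fold changes of 1.21 in R1 (adjusted p = 0.00035) and -0.87 in R2 (adjusted p = 0.0062) against control. PLAUR, the urokinase receptor gene, rose in R1 (155 ± 19.9 against 87.9 ± 12.5, log2 fold change 0.82, adjusted p = 0.0063). CD44, whose variant forms act as MET co-receptors, fell in R1 and rose in R2 (571 ± 22.4 and 995 ± 157 against 785 ± 34.3 in control, -0.46 and 0.33, adjusted p = 0.0055 and 0.047). In the list as a whole, 2 of 7 measured genes rose and 1 fell in R1, and 1 rose and 2 fell in R2. That is 42.9% in each, beside 43.8% of all genes in R1 and 28.4% in R2.

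IGF1R, the receptor of insulin-like growth factors, was lower in R1 than in R2, with control between them. Its normalised read counts were 11.1, 13.1, 7.48 and 8.16 in R1, 21.8, 19.0, 20.5 and 19.0 in R2, and 15.7, 17.6, 13.7 and 12.3 in control. The R2 libraries were above all others, and R1 replicate 2 lay above control replicate 4. IGF1R fell in R1 (9.96 ± 2.61 against 14.8 ± 2.34, SD, n = 4, log2 fold change -0.57, SE 0.17, adjusted p = 0.013). R2 minus control was 0.44 (20.1 ± 1.35 against 14.8 ± 2.34, 95% interval 0.08 to 0.80) and just missed the threshold (adjusted p = 0.068). R1 was 2.02-fold lower than R2 (log2 fold change -1.01, adjusted p = 0.00026). The R2 difference from control was called without R1 replicate 2 or 3 (0.44 in each fit, adjusted p = 0.033 and 0.045). IGF1R lies on chromosome 15, 98648539 to 98964530 on the plus strand. Of the 6 listed genes within 1 Mb, 0 rose and 4 fell in R2 against control, with a median log2 fold change of -0.53. The share of all genes that fell in R2 was 14.8%. The higher IGF1R values of R2 thus stood among lower neighbours.

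The IGF binding protein gene IGFBP4 rose in R1 and fell in R2. IGF1, IGF2 and INSR were not listed. IGFBP4, which holds IGFs away from the receptor, had 114, 102, 135 and 104.5 in R1, 23.4, 15.97, 20.4 and 17.2 in R2, and 48.6, 48.8, 71.2 and 57.5 in control, with no overlap between the 3 groups (1.01 in R1 and -1.53 in R2, adjusted p = 0.0001 and 4.3e-06). IGFBP7, a secreted protein with low affinity for IGFs, fell in R2 (14.6 ± 1.60 against 46.3 ± 7.82, log2 fold change -1.62, adjusted p = 4.4e-06) and did not pass in R1 (0.16, adjusted p = 0.43). PAPPA, the protease that cleaves IGFBP4, fell in R1 (5.20 ± 4.82 against 15.9 ± 1.21, log2 fold change -1.82, adjusted p = 0.0079). STC1 and STC2 code for stanniocalcins, which inhibit that protease. STC1 fell in R2 (60.6 ± 30.6 against 344 ± 121 in control, -2.58, adjusted p = 8.8e-05) and STC2 in R1 (389 ± 116 against 774 ± 75.5, -1.03, adjusted p = 0.00045). IRS2, an adaptor of the insulin and IGF receptors, rose in R1 (164 against 110.2 in control, 0.57, adjusted p = 0.024). Of 12 measured genes of the insulin and IGF list, 2 rose and 4 fell in R1, and 1 rose and 5 fell in R2. The share that passed was 50% in each, against 43.8% of all genes in R1 and 28.4% in R2.

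RYK had the smallest standard error of the 7 genes. Its normalised read counts were 98.8, 86.4, 80.5 and 90.1 in R1, 176, 169, 181 and 191 in R2, and 147, 146, 149 and 154 in control. The 3 groups were apart from each other in the order R1, control, R2. RYK fell in R1 to 88.9 ± 7.67 against 149 ± 3.79 in control (SD, n = 4, log2 fold change -0.74, SE 0.09, adjusted p = 1.4e-05), and was 2.02-fold lower in R1 than in R2 (log2 fold change -1.01, adjusted p = 8.8e-07). The rise in R2 was small, at 179 ± 9.35 against 149 ± 3.79 in control (log2 fold change 0.27, adjusted p = 0.036), and this call was lost in 7 of the 12 fits without 1 library, namely without R2 replicate 1, 3 or 4 or any of the 4 control libraries (0.23 to 0.28, adjusted p up to 0.095). RYK lies on chromosome 3, 134065303 to 134250744 on the minus strand. Of 8 listed genes within 1 Mb, 3 rose and 0 fell in R2 (median log2 fold change 0.32), where 28.4% of all genes passed. Between R1 and R2, 0 of these neighbours were higher and 4 lower in R1 (median -0.66), near the 46.8% of all genes that passed. The neighbour EPHB1, an ephrin receptor gene, was chosen after its values were seen. It had 4, 0, 0 and 2 reads in the R1 libraries and 210, 76, 92 and 69 in R2, against 1, 2, 1 and 3 in control.

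Of the noncanonical WNT ligand genes, WNT5A fell in both R1 and R2 and WNT5B in R1. WNT5A, a ligand that RYK binds, had 19.2, 23.0, 14.5 and 20.1 in R1, 21.8, 19.6, 29.4 and 28.6 in R2, and 41.7, 35.6, 46.0 and 50.2 in control. It fell in both (log2 fold changes -1.16 in R1 and -0.80 in R2, adjusted p = 7.7e-05 and 0.0025), with all R1 and R2 libraries below all control libraries. WNT5B, its close relative, had 3.62, 2.98, 7.29 and 4.73 in R1, 44.5, 17.4, 61.8 and 49.4 in R2, and 73.0, 72.2, 73.4 and 67.6 in control. It fell in R1 by 3.87 on the log2 scale (adjusted p = 4.8e-07), the largest log2 fold change among the ligand genes given here for R1 against control, while R2 minus control was -0.86 (adjusted p = 0.057). WNT6 was at 3.31 ± 0.837 in R1 and 1.58 ± 0.272 in control, with 5 reads in all R2 libraries together (0, 0, 3 and 2), and rose in R1 and fell in R2 (0.85 and -1.93, adjusted p = 0.0018 and 3e-06). FZD8, a Frizzled receptor gene, rose in R1 (10.8 ± 2.84 against 4.21 ± 0.942, log2 fold change 1.25, adjusted p = 0.00042). DVL2, a Dishevelled protein that carries the signal of Frizzled receptors, fell in both (36.6 in R1 and 37.7 in R2 against 89.8 in control, -1.27 and -1.22, adjusted p = 8.7e-06 and 2.1e-05), and its paralog DVL1 rose in both (0.63 and 0.36, adjusted p = 0.00076 and 0.038). ROR1 and ROR2, the other WNT5A receptors with kinase domains, were not listed. Of 21 measured genes of the WNT list, 6 rose and 9 fell in R1 (71.4% passed, against 43.8% of all genes), and 3 rose and 5 fell in R2 (38.1%, against 28.4%). The 8 calls in R2 became 5 without R2 replicate 1 or 4 or control replicate 2 or 4.

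**Figure D4:**
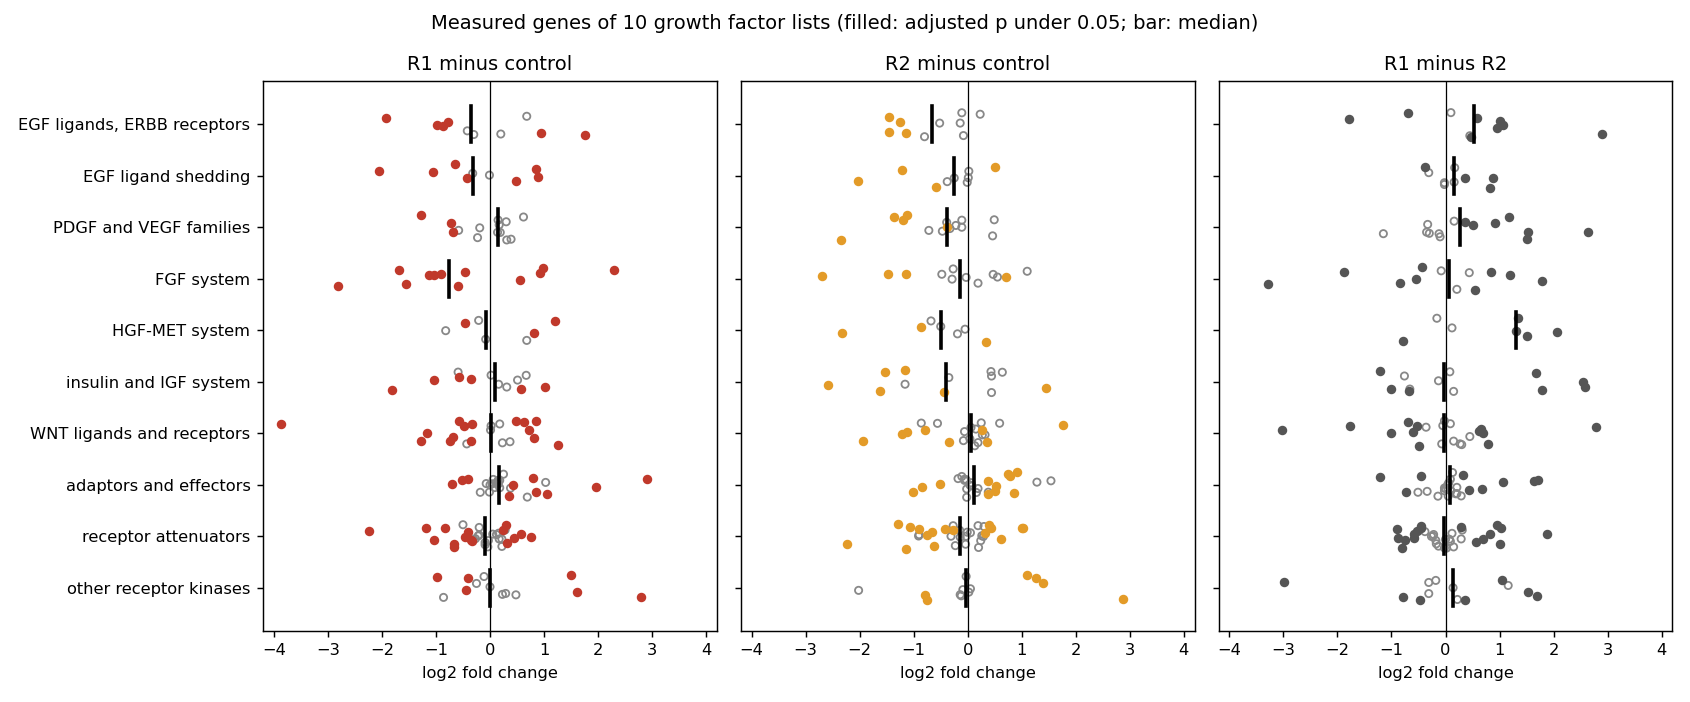
Log2 fold changes of the measured genes of 10 growth factor lists in the 3 comparisons, 1 point per gene, filled where the adjusted p was under 0.05, with a bar at each list's median. The FGF list has 12 filled points of 12 for R1 minus control, and the HGF-MET list has the highest median for R1 minus R2, at 1.31.

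Of 26 measured adaptors and proximal effectors, which act downstream of the receptors, 7 rose and 3 fell in R1, and 8 rose and 3 fell in R2. The share that passed was 38.5% in R1, under the 43.8% of all genes, and 42.3% in R2, against 28.4% of all genes. SHC1, an adaptor that links phosphorylated receptors to GRB2 and RAS, rose in both (344 ± 52.4 in R1 and 341 ± 20.1 in R2 against 198 ± 21.6 in control, log2 fold change 0.79 in each, adjusted p = 9.8e-05 and 0.00017). SOS1, the exchange factor that loads RAS with GTP, fell in R1 and rose in R2, at 26.0 ± 5.405 and 60.4 ± 4.199 against 42.4 ± 5.56 in control (-0.71 and 0.51, adjusted p = 0.0016 and 0.019), the same order of groups as in RYK and IGF1R. PIK3R1, the regulatory subunit of PI3K, rose in R2 (49.8 ± 6.81 against 29.8 ± 5.36, 0.74, adjusted p = 0.0045), and its paralog PIK3R3 rose in both (1.06 and 0.85, adjusted p = 0.0017 and 0.011). SRC, a kinase that receptors activate, rose in R1 from a low level in control (5.34 ± 1.53 against 0.259 ± 0.0915, log2 fold change 2.91, adjusted p = 0.00071).

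Of 33 measured receptor attenuators, 6 rose and 10 fell in R1, and 6 rose and 10 fell in R2. Both counts are 48.5% of the list, near the 43.8% of all genes in R1 and above the 28.4% in R2. The 16 calls in R1 became 10 without R1 replicate 4 or control replicate 1, and the 16 in R2 became 10 without R2 replicate 1. SOCS2, a suppressor of cytokine and growth hormone signalling, fell in both by 2.24 on the log2 scale (2.17 ± 0.710 in R1 and 2.19 ± 0.763 in R2 against 12.1 ± 3.42 in control, adjusted p = 1.7e-05 and 2.8e-05). NEDD4L and NEDD4, ubiquitin ligases, also fell in both, at 134 and 31.7 in R1 and 187 and 25.1 in R2, against 295 and 56.5 in control (adjusted p from 1.8e-05 to 0.0056). CBLB, a ubiquitin ligase that sends receptors to the lysosome, fell in R1 (4.67 against 9.86 in control, -1.04, adjusted p = 0.0015). Among 13 measured other receptor tyrosine kinases, 3 rose and 3 fell in R1, and 4 rose and 2 fell in R2, which is 46.2% in each, near the 43.8% of all genes in R1 and above the 28.4% in R2. EPHA4, an ephrin receptor, rose in both (6.85 ± 0.724 in R1 and 5.82 ± 0.570 in R2 against 1.91 ± 0.300 in control, adjusted p = 9e-07 and 5.8e-06). TIE1, known from endothelium, rose in R1 alone by the test (394 ± 54.6 in R1, 135 ± 14.0 in R2 and 139 ± 14.7 in control, adjusted p = 3e-07 and 0.86), and was 1.53 higher on the log2 scale in R1 than in R2 (adjusted p = 2.4e-07). DDR1, a collagen receptor kinase, fell in both (50.02 in R1 and 57.8 in R2 against 101 in control, adjusted p = 0.0047 and 0.023).

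Over the 10 lists together, 157 of 246 named genes were measured. In R1, 35 rose and 49 fell, in R2, 25 rose and 42 fell, and 51 were higher and 34 lower in R1 than in R2. The share that passed was 53.5%, 42.7% and 54.1%, against 43.8%, 28.4% and 46.8% of all genes. The lists' median log2 fold change was 0.00, -0.08 and 0.09 in these comparisons. The 67 calls in R2 became 39 without control replicates 3 and 4.

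The log2 fold changes of all genes moved with exon length, and the 7 genes differ in length from 1240 bases of merged exons in AREG to 12235 in IGF1R. For R1 minus R2 the median over genes under 2 kb was 0.20, over genes of 2 to 4 kb 0.04, over genes of 4 to 8 kb -0.08 and over longer genes -0.19. AREG, in the shortest class, was at 2.90 and the long genes EGFR and IGF1R at -0.70 and -1.01, each on the side of its class median and farther from 0. PDGFRB (2.63) and RYK (-1.01) lay on the other side of their class medians of -0.08 and 0.04. The mitochondrial share of the summed values differed between groups as well, at 2.17% to 3.28% in R1, 4.02% to 9.63% in R2 and 5.86% to 10.9% in control. The part of length and of the mitochondrial share in the receptor values was not tested.

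**Figure D5:**
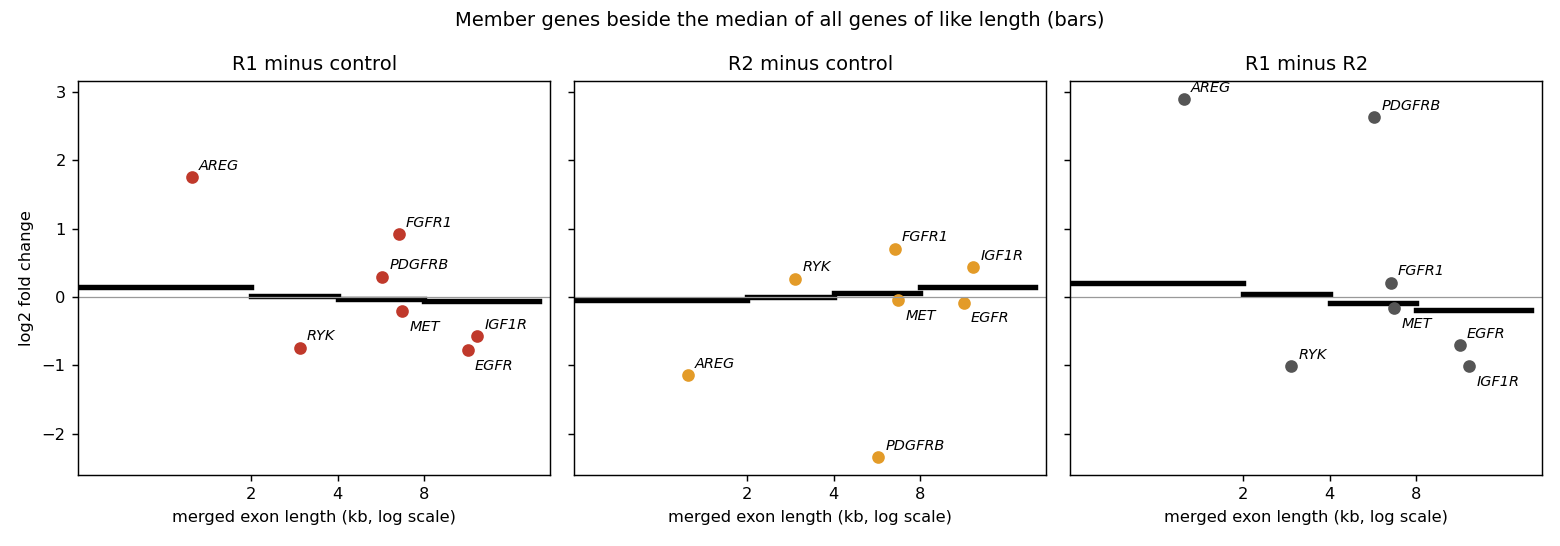
Log2 fold change of the 7 genes against merged exon length (log axis), with horizontal bars at the median of all genes under 2 kb, of 2 to 4 kb, of 4 to 8 kb and of 8 kb or more, in the 3 comparisons. For R1 minus R2, AREG at 2.90 and PDGFRB at 2.63 lay above the bars of their length classes, and EGFR, IGF1R and RYK below theirs.

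The genes whose log2 values were most like each member over the 12 libraries were ranked by Pearson's r, which reflects the 3 group levels that the libraries share. RYK had the closest likeness, to DNAJC13 (r = 0.987), SYNJ2BP (0.984) and DTX3L (0.983). DNAJC13 averaged 71.8 in R1, 162 in R2 and 136 in control. It lies on chromosome 3 at 132417526 to 132539032, as does DTX3L at 122564238 to 122575203, while SYNJ2BP lies on chromosome 14. Chromosome 3 also holds matches of other members given below, namely SLMAP and BBX (EGFR), RNF123 (PDGFRB) and NEK11 (IGF1R). AREG was most like RAB20 (0.978), SH2B3 (0.975) and SLC35E1 (0.969), and SH2B3, an adaptor that restrains cytokine receptor signalling, averaged 323 in R1, 123 in R2 and 184 in control. PDGFRB was most like RNF123 (0.969), PLCXD1 (0.962) and LOXL3 (0.961), a lysyl oxidase relative that averaged 28.5 in R1, 5.01 in R2 and 32.3 in control. EGFR was most like SLMAP (0.968), BBX (0.962) and ASXL2 (0.959), IGF1R most like NEK11 (0.974), WWC3 (0.954) and TRIM56 (0.953), and FGFR1 most like HEPH (0.950), HS3ST3A1 (0.944) and IFI44L (0.944). HEPH, a copper-dependent iron oxidase, averaged 5.73 in R1 and 2.52 in R2, against 0.0198 in control. MET had the weakest best matches, ANAPC1 (0.926), SIRT1 (0.925) and UHRF1BP1L (0.919).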

How the data were processed

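RNA had been extracted with a Qiagen RNeasy kit and made into TruSeq libraries, per the labels' protocols. The submitters' processing notes name the aligner STAR, the build GRCh38 and edgeR, whose versions are not given in the sources used here. The authors deposited, for each library, 12931 gene symbols with 1 normalised signal value each, scaled by library size. All values (100%) were whole multiples of the library's smallest step within 0.001 reads, so read numbers were recovered by division. Reads in listed genes gave the depth, and how reads of near-identical or overlapping genes, or of mouse cells, were assigned is not given.

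Values were compared as log2(value + 0.5) with limma 3.58.1 in R 4.3.3, with two-sided empirical Bayes tests and a trend of variance on mean. One fit of all 12 libraries held 3 group means and no replicate block, p-values were adjusted by the Benjamini-Hochberg method over 12931 rows, and a gene was called at an adjusted p under 0.05. Fold values are ratios of group means, and log2 fold changes of low genes are smaller than these ratios. Because the values were not counts, edgeR 4.0.16 and DESeq2 1.42.0 on the recovered reads were alternatives. The limma and edgeR fits were first tested on simulated data. Other alternatives changed the added constant, the filter on low values, the scaling, the libraries in the fit and the replicate block.

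The 7 genes, the 10 lists and the marker lists were chosen with earlier results of these data known. The text names the 7 genes, their measured ligands, up to 2 called genes per list, comparison and direction with the largest log2 fold change (where 1 of the group means reached 5), and the 3 genes most like each of the 7. A few genes that this rule took are not named, and for any further gene the text says that its values had been seen. Positions and exon lengths are from GENCODE 29. The search for motifs covered 250 bases before each RefSeq start.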

Additional observations from a re-analysis of the deposited data

Results flagged for a closer look

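For 5 of the 7 genes the difference between R1 and control departed from that between R2 and control. This was judged by the limma test of R1 minus R2 itself. The control values do not enter that difference, but the control libraries share in the estimate of spread behind its p-values. In limma fits of R1 and R2 alone all 5 still passed (adjusted p = 0.0093 for EGFR, 1.2e-05 for AREG, 0.00014 for PDGFRB, 0.0013 for IGF1R and 4.3e-05 for RYK). AREG was 2.90 higher in R1 than in R2 on the log2 scale (adjusted p = 2.8e-06), with 4 of 4 R1 libraries above all R2 libraries. Its means lay on opposite sides of control (1.76 and -1.14). The R2 and control ranges of AREG overlapped, and its R2 call was lost without control replicates 3 and 4 (-0.64, adjusted p = 0.16). PDGFRB was 2.63 higher in R1 (adjusted p = 6.2e-05), with all 4 R2 libraries at 4 to 15 reads. EGFR was lower in R1, at -0.70 (adjusted p = 0.0025), IGF1R at -1.01 (adjusted p = 0.00026) and RYK at -1.01 (adjusted p = 8.8e-07), again with no overlap between the groups. No library of any of the 7 genes stood apart from its group by Dixon's test at the 95% level.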

How the results depend on the processing

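The 3 comparisons were recomputed under 24 alternatives, of which 12 left out 1 library each and 2, without control replicates 1 and 2 or without 3 and 4, were chosen after seeing the data. The calls of AREG, EGFR, RYK and FGFR1 in R1 against control, of PDGFRB in R2 against control, and of all 5 genes between R1 and R2 kept their direction and passed in every one. IGF1R in R2 against control, not called in the main fit, was called with equal medians (0.47), in a fit of R2 and control alone (0.44) and with the replicate number as a block (0.44). Without control replicates 1 and 2, the values of PDGFRB in R1 (-0.29) and of EGFR (0.02) and MET (0.01) in R2 changed sign without being called, and the calls of IGF1R in R1 (-0.40) and of FGFR1 (0.63) and RYK (0.24) in R2 were lost. Without control replicates 3 and 4, those of AREG (-0.64), FGFR1 (0.79) and RYK (0.29) in R2 were lost, 2032 genes in place of 3667 were called in R2, and 39 genes of the lists in place of 67. The cause was not tested.

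With 1 library left out, log2 fold changes against control ranged from -0.04 to 0.55 for PDGFRB in R1, and in R2 from 0.55 to 0.88 for FGFR1, 0.35 to 0.52 for IGF1R, -0.12 to 0.00 for MET and 0.23 to 0.29 for RYK. The replicate block called 5798 genes in R1, 3733 in R2 and 6162 between R1 and R2, beside 5667, 3667 and 6053, and changed no other call of the 7 genes. The labels give a shared number no meaning, and deviations of same-numbered libraries correlated from -0.310 to 0.387 between R1 and control, -0.216 to 0.0851 between R2 and control and 0.0742 to 0.133 between R1 and R2. Between R1 and R2 all 4 were positive and 3 of 4 R1 libraries correlated best with the R2 library of their own number, a hint from the data and not from the design. Against control this held for 2 of 4 R1 and 1 of 4 R2 libraries. For the single lists, 29 counts of calls moved by over 1.5 times and 691 did not. On the recovered reads edgeR called 5645, 3564 and 5988 genes. Depth limits PDGFRB in R2, where 4 to 15 reads were counted per library.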
